A study of Homo sapiens with 17 samples.

Results

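The 10 genes described here encode heat shock proteins and chaperones: HSPA8, HSPA1A, HSPA1B, HSPA5, HSPH1, DNAJB1, HSP90AA1, HSP90AB1, HSPD1 and HSPE1. Their members in the data were the listed polymerase pausing sites inside the annotated span of each gene on its own strand, 215 distinct positions of 158141 in the whole study. The genes were chosen by name as well-known cases of promoter-proximal pausing, with earlier results of these data known. The rule itself did not use their pausing times. Sites came from HEK293, an established line of human embryonic kidney origin. Engaged RNA polymerases were allowed to run on for 0.5, 2, 8 or 32 min after permeabilisation, either in a buffer with sarkosyl, a detergent that removes many chromatin proteins while engaged polymerases stay on the DNA, or in a sarkosyl-free buffer. The 16 libraries, 2 replicates per time and buffer, were condensed by the authors into 4 tables, 1 for each buffer and replicate, called series here. A series gives 1 estimate of pausing time per site, drawn from its 4 run-on libraries. All cells were of 1 line, and the labels name neither a heat shock nor another treatment for these libraries. A further sample labelled as a treatment was not analysed here.

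Chaperones bind unfolded proteins and help them fold. HSP70 proteins hold short unfolded stretches, J-domain proteins deliver clients to them and stimulate their ATPase, HSP90 proteins mature many kinases and receptors, and the mitochondrial chaperonin folds imported proteins in a closed chamber. In unstressed cells, polymerase II initiates on many heat shock genes and halts shortly downstream of the start. On stress, heat shock factor binds arrays of inverted GAA units, the heat shock elements, upstream of the start, and the halted polymerase is released.

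Promoter sequences of the genes were searched for such arrays within fixed windows only. The sequences were read from the RefSeq promoter windows of GRCh38.p14, 250 bases before to 50 after each start, for all 10 genes. Where a gene has several RefSeq starts, the start with the most sites within 300 bases downstream was used. A pair of inverted units, GAANNTTC or TTCNNGAA on either strand, was present in 6 of 10 windows, against 13.5% of all 35116 RefSeq promoter windows. Overlapping pairs that form 3 alternating units, 13 bases long, were present in 3 of 10 windows (HSPA8, HSP90AA1 and HSPD1), against 0.490% of all windows. A TATA box, searched as TATAAA or TATATA on either strand, was present in 6 of 10 windows, against 13.7% of all windows. Not all matches are shown: HSPA8 has another array of 3 units at -230 bases from its start, and HSP90AA1 a further pair at -68 bases. In the lines below, capitals mark the matches shown, and the start, end and strand of each stretch stand before it.
HSPA1B (chr6:31827627-31827720, plus): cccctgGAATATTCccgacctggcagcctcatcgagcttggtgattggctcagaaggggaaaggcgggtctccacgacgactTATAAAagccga
HSPA1A (chr6:31815431-31815450, plus): accctgGAATATTCccgacc
HSPA1A (chr6:31815507-31815524, plus): acgactTATAAAagccca
HSPA8 (chr11:123062173-123062197, minus): ggccccTTCTGGAAGGTTCtaagat
HSP90AA1 (chr14:102087114-102087138, minus): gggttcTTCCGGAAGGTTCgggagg
HSP90AA1 (chr14:102087063-102087080, minus): cgtcgcTATATAaggcag
DNAJB1 (chr19:14518414-14518480, minus): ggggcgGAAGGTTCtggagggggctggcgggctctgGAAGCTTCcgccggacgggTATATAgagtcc
HSPD1 (chr2:197500062-197500090, minus): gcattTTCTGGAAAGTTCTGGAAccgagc
HSP90AB1 (chr6:44247064-44247081, plus): tcgcctTATATAgggcga
HSPA5 (chr9:125241362-125241379, minus): ggagggTATATAagccga
The elements of HSP90AB1 matched in the window of another RefSeq start further downstream, in sequence outside the annotated exons of the gene.
HSP90AB1 (chr6:44247772-44247849, plus): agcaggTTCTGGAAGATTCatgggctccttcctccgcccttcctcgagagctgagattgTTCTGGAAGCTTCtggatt
No match of the element letters was found in the windows used for HSPH1, HSPE1 and HSPA5. Sequence outside the windows was not searched for these genes. The HSPD1 stretch above lies between the RefSeq starts of HSPD1 and HSPE1, outside the HSPE1 window (chr2:197500129-197500428). The HSPH1 window sits at a RefSeq start at -461 bases from its principal GENCODE start.

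Downstream of these starts, the listed sites began close by. For HSP90AA1, HSP90AB1, HSPD1 and DNAJB1, which have several RefSeq starts, this was partly fixed, because the start with the most sites was used. Of the 215 positions, 36 lay within 100 bases downstream of the RefSeq start, and no share over all genes was taken. Sites upstream of the start were left out in finding the first site of a gene, and HSP90AB1 had such sites at -461, -393 and -392 bases. The first downstream site lay at 16 bases from the start in DNAJB1, 18 in HSP90AB1 and HSPD1, 23 in HSPA5, 29 in HSP90AA1, 35 in HSPA1B, 46 in HSPE1 and 62 in HSPA8. HSPH1 was the exception, with its first site at 531 bases from the RefSeq start. Its principal GENCODE transcript starts further downstream, and 5 of its 9 sites lay within 300 bases of that start. The stretches around 6 of the sites are given with the site itself in capitals, since these sites recurred between replicates and carry the comparisons that follow.
HSP90AB1, 54 bases from the start (chr6:44247145-44247165, plus): gaaagcaagcCtacgttgctc
HSP90AB1, 49 bases from the start (chr6:44247140-44247160, plus): tatcggaaagCaagcctacgt
HSP90AA1, 38 bases from the start (chr14:102086996-102087016, minus): gccgttggtcCtgtgcggtca
HSPA1B, 35 bases from the start (chr6:31827763-31827783, plus): cgagggtccgCttcgtctttc
HSPE1, 85 bases from the start (chr2:197500454-197500474, plus): gccccgaggcCtgcaggcccg
HSPD1, 18 bases from the start (chr2:197499812-197499832, minus): cgccgccgacGacctgtctcg

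**Figure D1:**
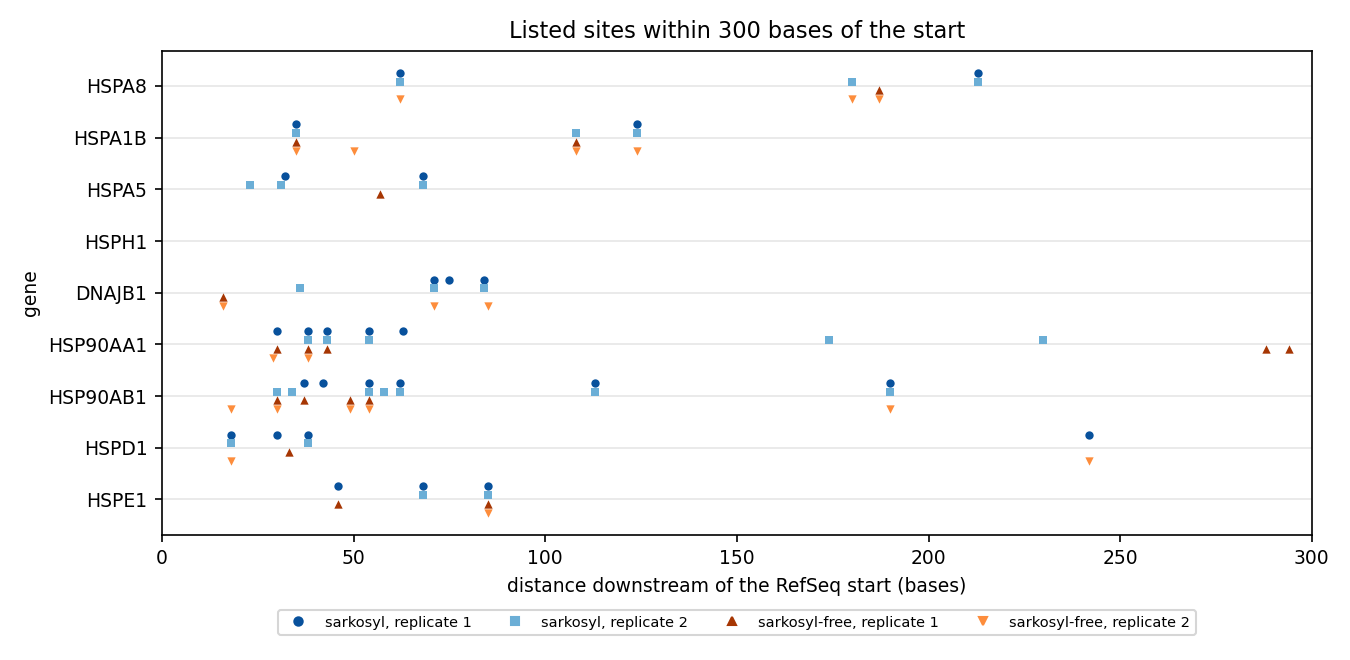
Listed sites of each gene by distance downstream of its RefSeq start in bases, with 1 row of points for each of the 4 series. In 8 of the genes there are points between 16 and 85 bases, and HSPH1 has none within 300 bases.

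The 4 series listed 48566 and 47713 sites with sarkosyl, against 66089 and 41769 without, and the chaperone genes held 84, 82, 89 and 55 of them. No read depth was given, so a position that is not listed cannot be told apart from a position with too few reads. Median pausing times of all sites were 1.49 and 1.34 with sarkosyl, against 2.23 and 8.00 without, in a unit that was not stated. Per site, the authors' quartiles of the rate lay apart by a median factor of 2.75, 3.26, 3.44 and 2.22 in the 4 series. Of 8 genes expected in HEK293, 4 or 5 had a site in each series, and of 10 blood cell genes, 2 had a site in sarkosyl replicate 2 and none in the other series. Of the HEK293 genes, LIN28B, KRT8, KRT18 and VIM had sites in every series and CDH2 only without sarkosyl. PAX2, LHX1 and NEFM had none in any series. The series' design text calls the replicates biological duplicates.

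Chaperone genes were densely populated with sites. The 9 genes with a site had a median of 1.13 distinct sites per kb of span. Over 11283 protein-coding genes with a site it was 0.140 per kb. Per gene, the medians were 19 and 5 sites. Gene length, expression and read depth were not matched in this comparison. Spans of the 9 genes ran from 2.52 kb in HSPA1B to 59.0 kb in HSP90AA1. HSP90AB1 held 55 positions and HSP90AA1 54, followed by HSPD1 with 34, HSPA8 with 26, HSPA5 with 19, DNAJB1 with 11, HSPH1 with 9, HSPA1B with 4 and HSPE1 with 3. HSPA1A held none. By place, 42 positions were promoter-proximal, taken here as within 300 bases downstream of the principal GENCODE start. A further 170 lay deeper in the gene and 3 lay upstream of that start. The 170 include all 3 HSPE1 sites, since the principal GENCODE start of HSPE1 lies upstream of its RefSeq start. Promoter-proximal sites made up 31.0% and 26.8% of chaperone sites with sarkosyl, and 14.6% and 30.9% without. Over all sites inside genes the shares were 33.1% and 26.3% with sarkosyl, and 18.0% and 18.3% without. In these shares over all sites, a site counted if it was near the start of any annotated gene that contains it. A chaperone site counted only by the start of its own gene, so the measures are not quite alike. As counted, the chaperone share stood well above that of all sites only in sarkosyl-free replicate 2. Only 8 positions were listed in all 4 series, while 14 were listed in 3, 43 in 2 and 150 in 1.

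The largest overlap was that of the sarkosyl replicates, which shared 43 chaperone sites, 51.2% of those in replicate 1 and 52.4% of those in replicate 2, where all sites of the study gave 37.1% and 37.8%. The sarkosyl-free replicates shared 21, 23.6% and 38.2% of their lists, against 21.0% and 33.3% over all sites. Between buffers, 15 to 19 chaperone sites were shared, 16.9% to 34.5% of a list, against 9.68% to 18.8% over all sites. Where both replicates of a buffer listed a site, their pausing times ranked alike, with Spearman's rho of 0.70 over 43 sites with sarkosyl and 0.81 over 21 sites without it. Between buffers rho lay between -0.57 and -0.05. These correlations are across sites, which share genes and libraries, and are given as a description.

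As a group, the chaperone sites had medians above that of all sites in 3 of the 4 series and slightly below it in sarkosyl-free replicate 2. With sarkosyl their medians were 1.87 and 1.60 in replicates 1 and 2, beside 1.49 and 1.34 over all sites. Without it they were 4.24 and 7.69, beside 2.23 and 8.00. The median of the whole series was exceeded by 52 of 84, 47 of 82, 55 of 89 and 27 of 55 sites. These are descriptions with no test. Single values ran from 0.184 in HSPA8 to 76.9 in HSP90AA1 and HSP90AB1, all in sarkosyl-free series. Medians in this text were taken on the log2 scale, so an even number of values gives the geometric mean of the middle pair.

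**Figure D2:**
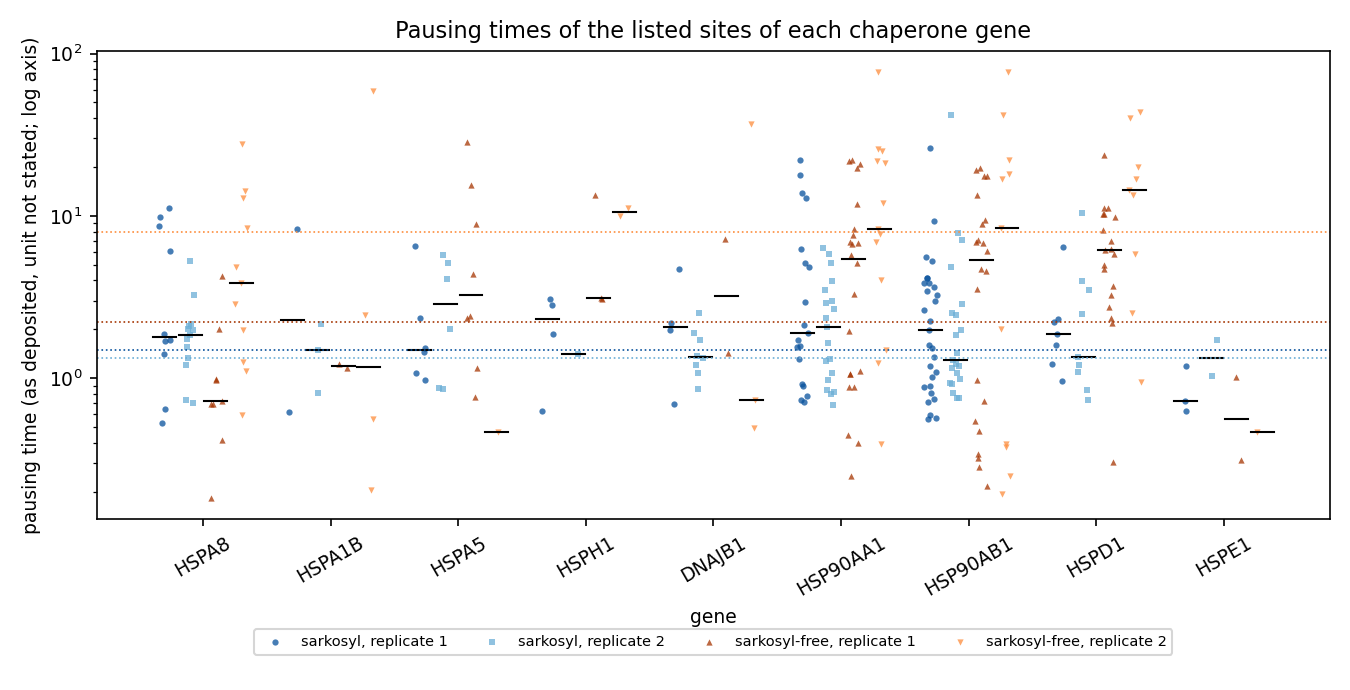
Pausing time of every listed site by gene and series on a log axis, with a black bar at the median of each gene and series and dotted lines at the median of all sites of a series. The HSP90AA1, HSP90AB1 and HSPD1 medians without sarkosyl lie between 5.36 and 14.5, above their medians with sarkosyl of 1.29 to 2.07.

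Among the HSP70 genes, HSPA8, the constitutive HSP70 of the cytosol, had the largest centred difference between buffers among the 4 chaperone genes with enough sites for a test of gene medians, and it did not pass. Its median pausing time was 1.79 and 1.84 with sarkosyl, against 0.720 and 3.88 without. Raw levels of the buffers therefore overlapped. After centring of every series at its median of the 1769 genes tested, the HSPA8 buffers no longer overlapped. The share of all genes with such a separation was not counted. HSPA8 stood at 0.13 and 0.35 on the log2 scale with sarkosyl, against -1.77 and -1.14 without. The difference, sarkosyl minus sarkosyl-free, was 1.70 ± 0.57 (SE, 2 series per buffer), with an adjusted p of 0.46 by limma with Benjamini-Hochberg adjustment. Centring raised the difference of every gene by the same amount: without it the median over all genes was -1.44 in place of 0.14, a shift of -1.58. The order then turned round, since HSPA8 at 0.12 was the smallest of the 4, beside -1.76 in HSP90AA1, -2.07 in HSP90AB1 and -2.57 in HSPD1. None of these 4 passed the adjusted threshold, and only HSPD1 had an unadjusted p under 0.05.

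The heat-inducible pair HSPA1A and HSPA1B differed in whether any site was listed. HSPA1A had 0 sites in all 4 series. HSPA1B had 4 positions at 35, 50, 108 and 124 bases from its start and none further in. The site at 35 bases had pausing times of 0.617 and 0.808 with sarkosyl, against 1.22 and 0.206 without, so the buffers overlapped. The site at 108 bases was listed at 1.5 in sarkosyl replicate 2 and at 1.16 and 2.46 without sarkosyl, and the site at 124 bases at 8.33 and 2.16 with sarkosyl and 0.561 in sarkosyl-free replicate 2. The site at 50 bases, named after its value was seen, was listed at 58.8 in sarkosyl-free replicate 2 alone. The transcripts of the pair are identical over a run of 1715 bases, and 73.3% of the 30-base stretches of HSPA1B also occur in HSPA1A. Of the 4 HSPA1B sites, 1 ends a stretch of 30 bases found in both genes. How reads that match both copies were counted is not given in the sources used here, and its part in the absence of HSPA1A was not tested.

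HSPA5 is the HSP70 of the endoplasmic reticulum, and HSPH1 is an HSP110 protein that exchanges the nucleotide of HSP70. HSPA5 had 6, 6, 8 and 1 sites in the 4 series with medians of 1.49, 2.86, 3.25 and 0.468. Its promoter-proximal site at 68 bases was listed at 6.49 and 4.08 with sarkosyl and not without it. HSPH1 had 4, 1, 3 and 2 sites with medians of 2.30, 1.40, 3.11 and 10.6. Its site at 86 bases from the GENCODE start was listed without sarkosyl, at 3.11 and 10.0. DNAJB1, the J-domain partner of HSP70 that rises with heat, had 4, 8, 2 and 3 sites with medians of 2.07, 1.35, 3.21 and 0.737. Near its start, the site at 71 bases had 1.97 and 1.33 with sarkosyl and 0.492 in sarkosyl-free replicate 2, while the site at 84 bases had 2.17 and 1.37 with sarkosyl. The site at 16 bases was listed without sarkosyl, at 1.42 and 0.737. These 3 genes, with HSPA1B and HSPE1, had too few sites for the test of gene medians, which asked for 3 in every series.

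The cytosolic HSP90 genes had longer raw medians without sarkosyl. HSP90AA1, the stress-responsive form, had 19, 19, 22 and 13 sites with medians of 1.90 and 2.07 with sarkosyl, against 5.41 and 8.33 without. HSP90AB1, the constitutive form, had 29, 21, 22 and 11 sites with medians of 1.98 and 1.29 with sarkosyl, against 5.36 and 8.40 without. The median of all sites was also higher without sarkosyl. Centred on the genes tested, the difference, sarkosyl minus sarkosyl-free, was -0.18 ± 0.64 on the log2 scale (SE, adjusted p = 0.94 by limma) for HSP90AA1 and -0.50 ± 0.64 (adjusted p = 0.82 by limma) for HSP90AB1. The sign of either reversed when sarkosyl-free replicate 1 was left out, to 0.40 and 0.08. All HSP90AA1 sites lay within 6289 bases of its RefSeq start, and none lay in the part of the span that only the long isoform covers.

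The mitochondrial chaperonin HSPD1 and its lid HSPE1 share a promoter and are transcribed in opposite directions. HSPD1 had 7, 9, 19 and 9 sites with medians of 1.88 and 1.34 with sarkosyl, against 6.13 and 14.5 without. Its centred values were 0.19 and -0.10 with sarkosyl, against 1.32 and 0.76 without. The buffers did not overlap, a separation that was not counted over all genes. The log2 difference, sarkosyl minus sarkosyl-free, was -0.99 ± 0.57 (SE, adjusted p = 0.65 by limma). Near the start, its site at 18 bases had 2.23 and 1.34 with sarkosyl and 0.945 in sarkosyl-free replicate 2, and its site at 38 bases had 2.30 and 1.09 with sarkosyl. HSPE1 had 3 positions, all within 100 bases of its RefSeq start. The site at 85 bases had 0.722 and 1.72 with sarkosyl, against 0.314 and 0.464 without, and also lies inside the readthrough gene HSPE1-MOB4 on the same strand. Its other sites, described because the gene has so few, lay at 46 bases (0.626 with sarkosyl and 1.01 without, each in replicate 1) and 68 bases (1.19 and 1.03 with sarkosyl).

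In the test of gene medians, 4 chaperone genes were measured and 0 were called, as were 0% of the 1769 genes. At an unadjusted p under 0.05, 1 of the 4 (HSPA8) was reached, against 9.33% of all genes. The median difference over the 4 was -0.34, against 0.14 over all genes tested. With at least 1 site per series, 9 chaperone genes entered, 0 were called among 6028 genes, and the median difference had the opposite sign, 1.51 against 0.22 over all genes. There HSPE1 had 2.33, HSPA5 2.13, HSPA1B 2.03, DNAJB1 1.51 and HSPA8 1.51 as log2 difference, sarkosyl minus sarkosyl-free, and HSPD1 -1.18, HSP90AB1 -0.68, HSP90AA1 -0.37 and HSPH1 -0.29. All 9 adjusted p-values by limma lay between 0.45 and 0.91.

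Single sites gave the widest separations. The 8 positions listed in all 4 series were compared within the 2967 such positions of the study, with series centred on their own median of these positions. In 7 of the 8 the raw pausing times of the buffers did not overlap, against 56.3% of all 2967. None of the 8 was called at an adjusted p under 0.05, and 0% of all shared sites were. When a sarkosyl-free replicate was left out, with the lone series assumed to vary like the sarkosyl pair, calls became common over the whole study. Without replicate 1, 5 of the 8 passed, against 53.8% of all 2967, and without replicate 2, 4 of the 8, against 22.2%. At an unadjusted p under 0.05, 4 of the 8 were reached, against 23.2% of all. The 8 share 5 genes and are not independent of each other.

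The HSP90 sites were short with sarkosyl and long without it. The HSP90AB1 site at 54 bases from the start (chr6:44247155) had pausing times of 0.562 and 0.806 with sarkosyl, against 6.94 and 76.9 without. The log2 difference, sarkosyl minus sarkosyl-free, was -4.97 ± 1.22 (SE, adjusted p = 0.16 by limma). The HSP90AA1 site at 38 bases (chr14:102087006) had 0.714 and 0.685 with sarkosyl, against 3.30 and 25 without, a difference of -3.56 ± 1.09 (adjusted p = 0.17 by limma). In both, the sarkosyl replicates lay close together, while the sarkosyl-free replicates lay far apart, and replicate 2 had the longer time. Deposited rates have 3 decimals, so times as long as 76.9 rest on few distinct values. The HSP90AB1 difference was -6.64 without sarkosyl-free replicate 1 and -3.29 without sarkosyl-free replicate 2. It was -4.74 without sarkosyl replicate 1 and -5.19 without sarkosyl replicate 2. In the same order, the HSP90AA1 difference was -4.96, -2.16, -3.63 and -3.50. A further HSP90AB1 site lay deep in the gene, 3825 bases from the start. It had 0.878 and 1.07 with sarkosyl, against 13.5 and 8.40 without. Its difference was -3.32 ± 0.75 (adjusted p = 0.15 by limma), and -2.92, -3.72, -3.21 and -3.43 with series left out in that order.

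Neighbouring HSP90 sites did not all behave alike. In HSP90AB1, the site at 49 bases was listed without sarkosyl, at 3.55 and 22.2, while the site at 62 bases was listed with it, at 3.64 and 1.29. The site at 30 bases had 0.760 in sarkosyl replicate 2 and 0.718 and 0.249 without sarkosyl, so it was short in every series that listed it. The site at 113 bases had the longest times of HSP90AB1 with sarkosyl, 26.3 and 41.7, and was listed in neither sarkosyl-free series. The site at 190 bases had 4.15 and 2.87 with sarkosyl and 2.02 in sarkosyl-free replicate 2. In HSP90AA1, the sites at 43 and 54 bases were short with sarkosyl, at 0.772 and 0.805 and at 0.737 and 0.842, and the site at 43 bases had 1.07 in sarkosyl-free replicate 1. The HSPA8 site at 62 bases had 0.644 and 0.707 with sarkosyl and 12.8 in sarkosyl-free replicate 2.

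The 3 HSPA8 sites listed in every series lay at the ends of small nucleolar RNAs. HSPA8 introns encode SNORD14C, SNORD14D and SNORD14E, box C/D RNAs that are cut from the intron and guide chemical modification of ribosomal RNA. Each site lay 1 base past the annotated 3′ end of its RNA. The last 20 bases of each RNA, from the GENCODE transcripts, are given because the ends are near-identical. Capitals mark the 4 bases at the place of box D, whose usual letters are CTGA.
SNORD14C (chr11:123059335-123059354, minus): ttccttggatgtCTGAgcga
SNORD14D (chr11:123058909-123058928, minus): ttccttggatgtTTGAgcga
SNORD14E (chr11:123058077-123058096, minus): ttccttggatgtCTGAgtga
The SNORD14E end had pausing times of 8.70 and 5.26 with sarkosyl, against 0.991 and 0.592 without, a log2 difference of 3.28 ± 0.78 (SE, adjusted p = 0.15 by limma). The SNORD14D end had 1.70 and 1.97 with sarkosyl, against 0.691 and 1.10 without (difference 1.21 ± 0.72, adjusted p = 0.35 by limma). The SNORD14C end had 1.41 and 1.56 with sarkosyl, against 0.691 and 1.25 without (difference 0.81 ± 0.74, adjusted p = 0.54 by limma). Without sarkosyl-free replicate 1 or 2 the SNORD14E difference was 3.71 or 2.85 (adjusted p = 0.010 and 0.036 by limma), in fits that called 53.8% and 22.2% of all shared sites. Under quantile normalization, which called 5.33% of them, the SNORD14E end (3.44) and the HSP90AB1 site at 54 bases (-5.16) passed, each with an adjusted p of 0.042 by limma. All 3 were longer with sarkosyl in both replicates, opposite in direction to the 3 HSP90 sites. Across the study, 51 to 61 of 545 plus-strand and 65 to 74 of 398 minus-strand small nucleolar RNA genes had a site exactly at their annotated last base, against at most 16 at any of the 6 neighbouring positions. The 3 HSPA8 sites lay outside that peak, at 1 base past the end. There, 8 to 10 of the 398 minus-strand genes had a site. A free 3′ end of a mature RNA and a polymerase position give the same kind of read, and their shares at these 3 sites were not tested. Without the 3 sites the HSPA8 medians were 1.87 and 1.79 with sarkosyl, against 0.836 and 6.37 without.

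**Figure D3:**
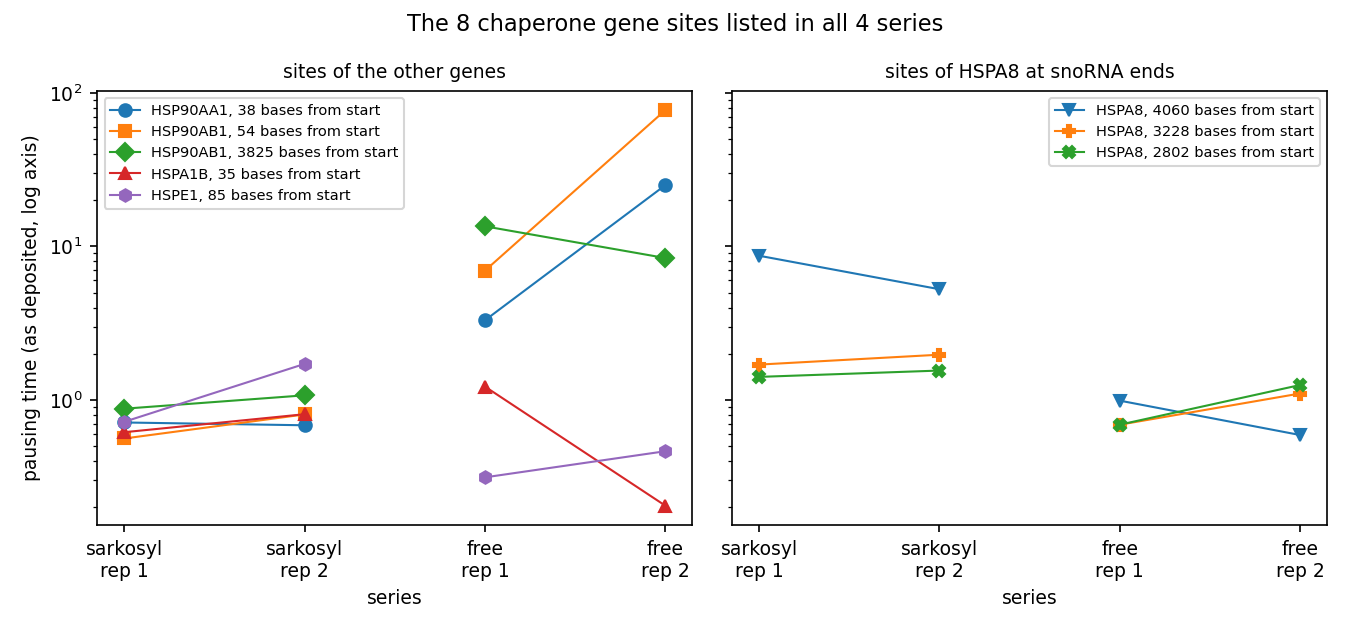
Pausing times of the 8 positions listed in all 4 series on a log axis, with replicates of a buffer joined by a line. The 3 HSP90 sites on the left have at most 1.07 with sarkosyl and at least 3.30 without it, and the 3 HSPA8 sites on the right lie lower without sarkosyl.

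The remaining shared sites were HSPE1 at 85 bases and HSPA1B at 35 bases. The log2 difference, sarkosyl minus sarkosyl-free, was 1.68 ± 0.80 (SE, adjusted p = 0.27 by limma) for HSPE1 and 0.63 ± 1.06 (adjusted p = 0.75 by limma) for HSPA1B. The HSPA1B value was 1.98 without sarkosyl-free replicate 1 (adjusted p = 0.026 by limma) and reversed to -0.72 without sarkosyl-free replicate 2.

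The base at the site differed between the series. It could be read for 136 of the 215 positions, those inside an annotated exon of a GENCODE transcript. Among chaperone sites with a known base, cytosine made up 71.4% and 69.2% with sarkosyl, against 47.2% and 38.5% without. Guanine made up 25% in both replicates with sarkosyl, against 43.4% and 59.0% without. Over all sites of the study, cytosine stood at 73.1% and 71.6% with sarkosyl, compared with 50.2% and 23.4% without, while guanine stood at 22.7%, 22.2%, 44.4% and 71.0%. Cytosine and guanine together made up 93.8% to 95.8% of all sites with a known base. The HSP90AB1 sites at 30, 49, 54 and 62 bases and the HSP90AA1 sites at 38, 43 and 54 bases were all cytosines.

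Median pausing times were longer at guanine than at cytosine sites in every series, with the wider gaps without sarkosyl. With sarkosyl the chaperone median was 1.65 at cytosines and 1.93 at guanines in replicate 1, and 1.30 and 1.56 in replicate 2. Without sarkosyl it was 1.22 at cytosines and 6.76 at guanines in replicate 1, and 1.97 and 4.83 in replicate 2. On the log2 scale, guanine minus cytosine was 0.23, 0.26, 2.46 and 1.30 in the 4 series, against 0.13, 0.10, 0.74 and 1.85 over all sites. These are medians over 13 to 40 sites of few genes and carry no test. The makeup of bases moved with the buffer, and its part in the buffer differences of gene medians was not tested for genes without cytosine sites in every series. Over cytosine sites alone, with at least 1 in every series, 5 chaperone genes could be compared and none passed the adjusted threshold, HSPE1 having an unadjusted p under 0.05. The log2 difference, sarkosyl minus sarkosyl-free, was then 1.21 in HSPA8, -1.14 in HSP90AB1, -0.32 in HSP90AA1, 2.24 in HSPE1 and 1.19 in HSPA1B. Over all bases, with the same minimum of sites, these genes had 1.51, -0.68, -0.37, 2.33 and 2.03. The median over the 1381 genes with cytosine sites was 0.18.

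**Figure D4:**
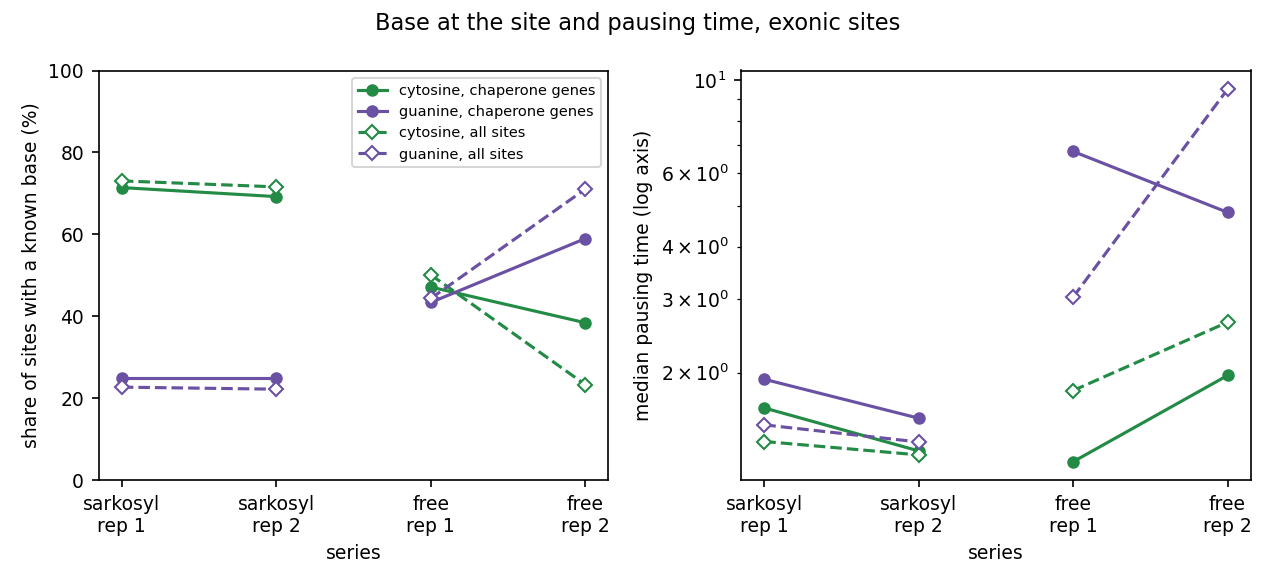
Share of sites at cytosine or guanine (left, percent of sites with a known base) and their median pausing time (right, log axis) in the 4 series, for the chaperone genes and for all sites. Without sarkosyl the guanine share of the chaperone genes is 43.4% and 59.0%, and the guanine medians lie above the cytosine medians in every series.

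Within a gene, promoter-proximal sites of the HSP90 genes had shorter median pausing times than the other sites of the span. In HSP90AB1 the other sites include 3 upstream of the start, listed only with sarkosyl. In HSP90AA1 the promoter-proximal median was 0.772, 0.805, 1.07 and 3.14 in the 4 series, in the order of sarkosyl replicates 1 and 2 and sarkosyl-free replicates 1 and 2. The other sites of HSP90AA1 had 3.77, 2.50, 6.71 and 8.33. In HSP90AB1 the promoter-proximal medians were 1.80, 0.981, 1.60 and 2.02, against 1.98, 1.63, 6.42 and 11.9 elsewhere. Promoter-proximal sites were thus shorter in all 4 series in both genes. The same was seen in 19.0% of the 747 genes that could be compared.

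The mean log2 difference over the series, promoter-proximal minus other sites, was -2.0 ± 0.60 (SE, n = 4 series, adjusted p = 0.19 by limma) in HSP90AA1 and -1.36 ± 0.58 (adjusted p = 0.31 by limma) in HSP90AB1. HSPD1 had differences of 0.67 and -1.03 with sarkosyl, against 0.89 and -4.05 without, so its replicates had opposite signs in either buffer, and its mean was -0.88 ± 0.88 (adjusted p = 0.67 by limma). The median over all 747 genes was -0.41, and 67.9% of them had a negative mean. None of the 3 chaperone genes was called, and 0% of all genes were. At an unadjusted p under 0.05, HSP90AA1 and HSP90AB1 were reached, against 15.8% of all genes. The HSP90AB1 value was smaller with class means (-0.50), RefSeq starts (-0.84) or any annotated start (-0.85), and its unadjusted p was then above 0.05. That of HSPD1 was -0.28 with either of these starts or a 500 bp window. Without sarkosyl-free replicate 1 the values were -1.69 in HSP90AA1, -1.50 in HSP90AB1 and -2.11 in HSPD1 (adjusted p = 0.034, 0.047 and 0.028 by limma), in a fit that called 29.2% of all genes. Without sarkosyl-free replicate 2, which called 8.97% of all genes, they were -2.31 in HSP90AA1 (adjusted p = 0.049 by limma) and -1.22 in HSP90AB1 (adjusted p = 0.12 by limma), and HSPD1 turned to 0.36.

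The promoter-proximal difference was not shown to depend on the buffer. Sarkosyl minus sarkosyl-free was 0.07 ± 1.20 in HSP90AA1, 1.85 ± 1.16 in HSP90AB1 and 1.40 ± 1.76 in HSPD1 on the log2 scale (SE), with adjusted p-values by limma of 0.99, 0.61 and 0.79. No gene was called in this comparison, 0% of 747, and 8.84% of them had an unadjusted p under 0.05, none of these 3 included. The HSP90AB1 value lay between 0.47 and 1.06 with RefSeq starts, any annotated start, class means or a 100 bp window, and that of HSPD1 was 0.41 with either of these starts or a 500 bp window. Without sarkosyl-free replicate 1 the HSPD1 value was 3.87 (adjusted p = 0.048 by limma, with 19.4% of all genes called), and without sarkosyl-free replicate 2 it was -1.07. The other chaperone genes lacked sites of either class in at least 1 series.

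**Figure D5:**
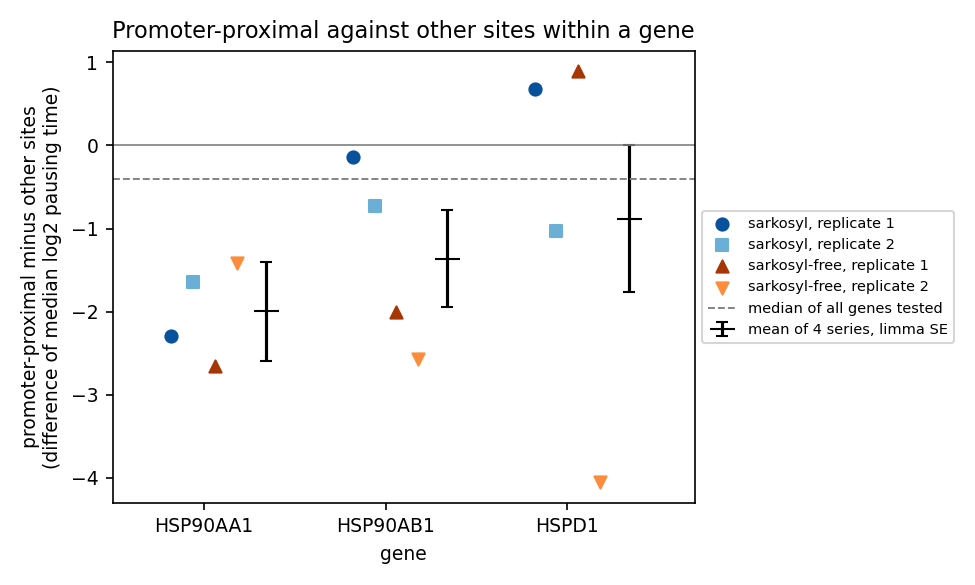
Difference of median log2 pausing time, promoter-proximal minus other sites of the gene, for the 4 series, with the mean and its limma standard error in black and the median of all 747 genes as a dashed line. All 4 points lie below 0 in HSP90AA1 and HSP90AB1, while HSPD1 has 2 points above 0 and 2 below.

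Of 82 further chaperone and heat shock genes, 23 had 3 sites in every series. None was called, at 0% of all genes, 10 had a higher centred median with sarkosyl and 13 a lower one, and the median difference was -0.14 against 0.14 over all genes. Of the chaperonin and prefoldin list 7 of 14 were tested (2 higher, 5 lower), of the J-domain list 5 of 18 (2 higher, 3 lower), of HSP90 and its co-chaperones 4 of 18 (1 higher, 3 lower) and of the heat shock factors and HSP70 family 3 of 12 (3 higher). The endoplasmic reticulum list gave 2 of 10, the mitochondrial list 1 of 4, the ubiquitin list 1 of 2 and the small heat shock proteins 0 of 4. The 3 with the largest difference among those whose buffers did not overlap were CCT6A, CCT2 and HSPA14. CCT6A and CCT2 are subunits of the cytosolic chaperonin, and HSPA14 is a ribosome-associated HSP70. The share of all genes whose buffers did not overlap was not counted. CCT6A had centred log2 medians of 1.08 and 0.12 with sarkosyl, against -0.23 and -2.75 without (difference 2.09 ± 0.94, SE, adjusted p = 0.58 by limma), and passed without sarkosyl-free replicate 1 (3.35, adjusted p = 0.048 by limma, in a fit that called 5.60% of all genes and none of the 4 chaperone genes above) but had 0.83 without sarkosyl-free replicate 2 (adjusted p = 0.47 by limma). CCT2 had -0.75 and -0.10 with sarkosyl, against 0.84 and 1.41 without (difference -1.55 ± 0.60, adjusted p = 0.50 by limma; -3.22 over cytosine sites alone), so subunits of 1 complex lay on opposite sides. HSPA14 had -0.50 and -0.10 with sarkosyl, against -1.85 and -2.61 without (difference 1.93 ± 0.59, adjusted p = 0.44 by limma), which turned to -0.37 over cytosine sites alone. With gene means in place of medians, CCT6A had 1.03 and HSPA14 0.85.

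Genes with a pattern like the HSP90 pair were sought by the Euclidean distance of the 4 centred gene medians, among 304 genes with at least 10 sites in every series. The HSP90 median profile was 0.24, 0.18, 1.13 and -0.03 on the log2 scale, in the order of the series above. The nearest genes were HNRNPAB at a distance of 0.22, RPS24 at 0.33 and SPEN at 0.37, where the median distance was 1.26. The likeness covers 4 series and is a description.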

How the data were processed

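Run-on sequencing of HEK293 cells was summarised by the authors as 4 deposited tables of pausing sites. Per the file headers, a row holds a position, a strand, other summaries of an estimate such as its quartiles and median, and a pausing time, which was the reciprocal of the deposited median in every row. Per the submitters' processing notes, cutadapt 1.14, HISAT2 2.1.0, SAMtools, bedtools and hg38 were used. The fitting model and the counting of reads with several matches are not given in the sources used here. The values are not counts, with unknown read depth, so intervals that rest on depth were left out. The number of value columns without a group was 0.

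Positions were taken as 1-based, since sites peaked exactly at annotated small nucleolar RNA ends on both strands, and were assigned with GENCODE 29. Log2 pausing times were compared with limma 3.58.1 (R 4.3.3) and Benjamini-Hochberg adjustment over all features, at a threshold of 0.05; gene medians and single sites were first centred per series. Python 3.11.15, pandas 2.3.3 and Biopython 1.88 were used. On simulated data at the observed spread, 0 of 200 changed genes were recovered at a log2 change of 2 and 189 at 4 (gene medians), 0 and 73 of 200 for single sites, and 0 and 195 of 200 for promoter-proximal differences. The 200 were drawn from 1769, 2967 and 747 features, so recovery is not comparable between the tests. The simulated noise was normal with 1 common spread per buffer, which the real features need not share.

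The members, gene lists and tests were chosen with earlier results of these data known. Named singly were sites in all 4 series and promoter-proximal sites in both replicates of a buffer; further chaperone genes were named if called, else the 3 with the largest difference among those whose buffers did not overlap. Sites of HSPA1B and HSPE1 outside this rule are marked where named. Alternatives covered centring, normalization, filters, windows, start annotation, a replicate block and leaving out each series; cytosine sites only and RefSeq starts were added after seeing the data.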

Additional observations from a re-analysis of the deposited data

Results flagged for a closer look

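Signal was found in parts of the deposited tables that the comparisons did not use. Past the annotated ends of the chaperone genes, within 5000 bases on the same strand and outside any annotated gene, 38 and 39 sites were listed with sarkosyl and 45 and 38 without it. They lay beyond 5, 5, 6 and 5 of the 10 genes. HSPA8 alone had 13, 12, 16 and 14 of them, beside 10, 13, 9 and 11 inside the gene, with median pausing times of 2.72, 1.23, 6.11 and 5.24. HSP90AA1 had 10, 12, 8 and 9, HSP90AB1 7, 9, 7 and 7, and HSPD1 3, 2, 9 and 7.

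On the other strand, within 1000 bases upstream of the RefSeq starts and outside any annotated gene, 1 site was listed, upstream of HSP90AB1, with a pausing time of 8.20 in sarkosyl replicate 1, and none in the other series. Upstream sites of HSPD1 and HSPE1 on the other strand were those of the partner gene. HSPA5 had a site on the other strand at -368 bases, inside another annotated gene. It was listed without sarkosyl, at 2.21 and 0.698.

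Alternate and unplaced contigs of chromosome 6 held 121 and 143 sites with sarkosyl and 161 and 86 without it. They were assigned to no gene here. Chromosome 6 carries HSPA1A, HSPA1B and HSP90AB1, and whether any of these sites belongs to a copy of them was not tested.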

How the results depend on the processing

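The count of calls, 0 in each comparison, moved most often at single sites. Leaving out each series in turn gave 0 to 99 genes for gene medians, 0 to 1597 single sites, 0 to 218 genes for promoter-proximal minus other sites and 0 to 145 for its buffer difference. All calls above 0 came without a sarkosyl-free replicate, where the lone sarkosyl-free series is assumed to vary like the sarkosyl pair: 99, 1597, 218 and 145 without replicate 1, and 660 single sites and 67 genes (promoter-proximal minus other sites) without replicate 2. Quantile normalization gave 158 single sites (5.33%). A fit with a replicate block gave 161 single sites (5.43%), 24 genes for promoter-proximal minus other sites (3.21%), 2 for its buffer difference (0.268%) and 0 for gene medians. Differences between replicate 1 and 2 correlated between the buffers at only 0.06 (gene medians), 0.01 (single sites) and 0.04 (promoter-proximal difference), so the numbers were not taken to pair the series. The cause of these changes was not tested.

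Of the 191 alternative values of the 21 genes, sites and differences named, 157 kept their direction and side of the threshold, 19 passed it and 15 reversed. The HSP90AA1 gene median difference reversed to 0.58 beyond 1000 bases of the start, 0.043 under quantile normalization, and that of HSP90AB1 to 0.34 with gene means; leaving out each series gave -0.77 to 0.40 and -1.07 to 0.078, the upper ends without sarkosyl-free replicate 1. HSPA14 reversed to -0.37 with cytosine sites only. The HSPA1B site at 35 bases reversed to -0.64 under quantile normalization and ran from -0.72 to 1.98 over series left out, the lower end without sarkosyl-free replicate 2. The buffer difference of HSP90AA1's promoter-proximal difference reversed to -0.91 with RefSeq starts or a 500 bp window, -0.20 with class means, and ran from -0.55 to 0.69 over series left out, negative without sarkosyl replicate 2 (-0.26) or sarkosyl-free replicate 1. For HSPD1, series left out gave -2.11 to 0.36 for the promoter-proximal difference and -1.07 to 3.87 for its buffer difference, with reversed sign without sarkosyl-free replicate 2. Quantile normalization called 5.33% of all shared sites. Under it the HSP90AB1 site at 54 bases and the HSPA8 site at the SNORD14E end passed (both adjusted p = 0.042 by limma). The block fit called 5.43% of all shared sites. In it that HSP90AB1 site and the HSP90AA1 site at 38 bases passed (adjusted p = 0.0027 and 0.040 by limma).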
